A study of Mus musculus with 46 samples.

Results

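The endocannabinoid system was followed through 8 genes: the cannabinoid receptor gene Cnr1 and the enzyme genes Dagla, Daglb, Napepld, Mgll, Faah, Abhd6 and Abhd12. They were found by their Ensembl identifiers among the 43346 genes of the deposited tables, and all 8 passed the filter on low counts in every comparison. RNA came from 23 mice aged 12 weeks, and each gave a library of right striatum and one of cortex, which makes 46. Vehicle was given to 8 wild-type (WT) and 7 R6/2 mice, and 8 further R6/2 mice received CHDI-00340246, an inhibitor of kynurenine 3-monooxygenase (KMO). The R6/2 model of Huntington's disease carries the transgene Tg(HDexon1)62Gpb, a CAG-expanded exon 1 of human huntingtin that is present in all cells of the animal. The labels give the background C57BL6/J for every mouse. Oral doses of 30 mg/kg were given twice-daily for 8 weeks, starting at week 4. The vehicle was HP-β-CD in citrate buffer. No WT mouse received the compound. Each arm held 4 females, with 3 males among the vehicle R6/2 mice and 4 males in each of the other arms.

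Endocannabinoids are lipid messengers that neurons make on demand from membrane lipids and that travel backwards across the synapse. The main messenger, 2-arachidonoylglycerol (2-AG), is made by the diacylglycerol lipases encoded by Dagla and Daglb and is broken down mostly by monoacylglycerol lipase (Mgll), with shares for ABHD6 and ABHD12. Anandamide, an N-acylethanolamine, can be made through the phospholipase encoded by Napepld and is broken down by fatty acid amide hydrolase (Faah). Both act on the CB1 receptor, encoded by Cnr1, which sits on nerve terminals and lowers transmitter release. In the striatum CB1 is dense on the projection neurons and their terminals, and in the cortex it is strongest in interneurons that contain cholecystokinin (CCK) and weaker in pyramidal neurons.

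The stretches of 250 bases before a transcript start in RefSeq are shown for the 3 genes whose RNA differed most between groups or went opposite ways in the 2 tissues, to give the sequence context of those genes. The RNA counts carry no measure of promoter activity. The RefSeq table of promoters (GRCm38.p6) held 6 of the 8 members, without Dagla and Abhd12, and the most upstream window of each gene was taken. Capitals mark a GC box (GGGCGG), or an E-box (CACGTG), searched on both strands. The Cnr1 window lies at chr4:33924014-33924263 on the plus strand, before a RefSeq start that itself lies upstream of the GENCODE gene start (33924593). The Mgll window lies at chr6:88724162-88724411 on the plus strand and the Faah window at chr4:116017925-116018174 on the minus strand.
Cnr1: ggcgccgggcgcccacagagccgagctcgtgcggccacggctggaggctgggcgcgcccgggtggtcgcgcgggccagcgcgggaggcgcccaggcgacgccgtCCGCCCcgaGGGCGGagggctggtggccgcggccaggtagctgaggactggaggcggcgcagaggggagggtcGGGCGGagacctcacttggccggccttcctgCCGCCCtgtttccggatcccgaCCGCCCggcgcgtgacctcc
Mgll: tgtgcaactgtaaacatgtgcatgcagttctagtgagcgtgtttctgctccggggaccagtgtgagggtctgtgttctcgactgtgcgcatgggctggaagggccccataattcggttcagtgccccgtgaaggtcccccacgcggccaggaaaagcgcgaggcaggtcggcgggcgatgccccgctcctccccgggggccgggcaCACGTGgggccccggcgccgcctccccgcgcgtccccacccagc
Faah: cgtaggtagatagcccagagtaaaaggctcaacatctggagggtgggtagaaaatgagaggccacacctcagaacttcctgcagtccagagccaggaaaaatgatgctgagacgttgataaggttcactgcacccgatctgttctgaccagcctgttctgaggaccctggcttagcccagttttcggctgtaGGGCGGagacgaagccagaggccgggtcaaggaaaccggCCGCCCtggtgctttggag
The Cnr1 window was 79.2% G and C with 36 CpG pairs, where the median of all 32851 windows in the table was 52.4% with 6 CpG pairs. It held 5 GC boxes, and Faah held 2; a share of 32.7% of all windows held at least 1. The Mgll window had 68.0% G and C, 23 CpG pairs and 1 E-box, a motif present in 6.02% of all windows. Neither the cAMP response element TGACGTCA (1.55% of all windows) nor its core TGACG (17.8%), which overlaps it, was found in the window of any of the 6 members. A TATA box (TATAAA, 12.4% of all windows) was also not found in those 6 windows.

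Total counts per library ran from 30.4 to 37.8 in units of 1e+06. Striatal and cortical libraries matched their labels by marker genes: the summed level of 12 genes of striatal projection neurons was 7027 to 9351 CPM in WT striatum and 458 to 631 CPM in WT cortex, and that of 10 genes of cortical projection neurons was 583 to 892 and 2732 to 3167 CPM. CPM are counts per 1e+06, scaled over all 46 libraries by the trimmed mean of M values (TMM). A treated striatal library, from female F4, stood apart: its striatal projection neuron markers summed to 929 CPM against 2642 to 3696 CPM in the other 7 treated libraries, and results that rest on it are given with and without it. Labels such as F4 (sex and replicate number) restart in each group and tissue and do not name a mouse. The mouse of treated striatal F4 gave the treated cortical library F2. A vehicle R6/2 cortex library, from female F3, held 540 CPM of the striatal projection neuron markers against 308 to 338 CPM in the other 6. In bulk tissue fewer cells of a type and less RNA per cell cannot be told apart. A gene was called at an adjusted p under 0.05 in edgeR's quasi-likelihood test with Benjamini-Hochberg adjustment over all genes tested.

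In WT mice the receptor gene and the enzyme genes had opposite distributions over the tissues. Cnr1 ran from 352 to 622 CPM in the 8 WT striatal libraries, with a median of 435, and from 122 to 181 CPM, median 147, in the cortex of the same animals. It was higher in the striatum of each of the 8 animals, 2.93-fold in the fit with the animal as a block (log2 1.55 ± 0.07 SE, adjusted p = 3.34e-09). The other 7 members were all lower in the striatum than in the cortex. Of 17051 genes, 62.8% were called in this comparison, 31.2% higher and 31.6% lower in the striatum, so that being called is common there. WT striatal and WT cortical libraries shared no run tag (an L number in the library names), so tissue and tag cannot be told apart in this comparison.

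Faah had the steepest of these tissue differences among the enzymes. Its WT level was 24.0 to 35.0 CPM in the striatum, median 30.1, and 126 to 143 CPM in the cortex, median 129, with no overlap and a striatal level 4.51-fold lower (log2 -2.17 ± 0.06). Napepld followed at log2 -1.23 ± 0.08 and Mgll at -0.96 ± 0.04, each without overlap of the WT tissues. Smaller differences were found for Abhd6 (-0.66 ± 0.04), Daglb (-0.61 ± 0.03), Dagla (-0.34 ± 0.06) and Abhd12 (-0.24 ± 0.05), whose tissues overlapped in Abhd12 alone. The adjusted p of these 7 differences ranged from 5.65e-11 (Faah) to 7.05e-04 (Abhd12). How many of all genes had WT tissues without overlap was not counted.

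Levels of different genes were compared on the authors' FPKM, which divide by transcript length. In WT striatum Abhd12 was highest at 139 ± 12.5 FPKM (SD, n = 8), followed by Cnr1 at 73.9 ± 12.3, Mgll at 42.5 ± 2.03 and Dagla at 20.7 ± 1.65. Below them came Abhd6 at 15.8 ± 1.09, Daglb at 9.69 ± 0.26, Faah at 9.07 ± 1.16 and Napepld at 2.38 ± 0.56 FPKM, and of these neighbours Daglb and Faah did not differ beyond their spread. In WT cortex Abhd12 (166 ± 8.15 FPKM) was again the highest, ahead of Mgll (81.7 ± 5.02) and Faah (41.5 ± 2.48). The next 3 genes, Dagla (25.6 ± 1.88), Cnr1 (24.7 ± 3.10) and Abhd6 (24.6 ± 1.81), overlapped one another, and Daglb (14.5 ± 0.66) and Napepld (5.36 ± 0.50) were lowest.

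**Figure D1:**
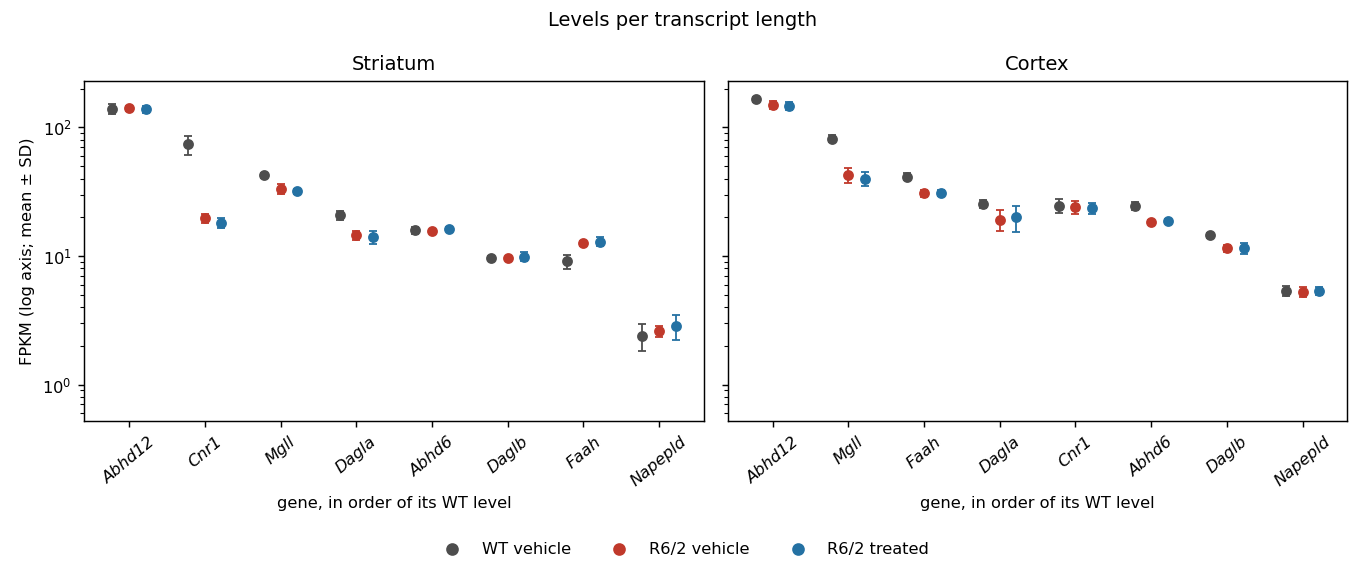
Mean FPKM (log axis, error bars SD over 7 or 8 libraries) of the 8 genes in striatum (left) and cortex (right), ordered by their WT level, with WT vehicle in grey, R6/2 vehicle in red and R6/2 treated in blue. Cnr1 stood behind Abhd12 alone in WT striatum at 73.9 FPKM, and behind Abhd12 and Mgll in vehicle R6/2 striatum at 19.6 FPKM.

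The receptor gene. Cnr1 (ENSMUSG00000044288, chr4:33924593-33948831, mm10) fell by 75.6% in the striatum of R6/2 mice and was not called in their cortex. The 7 vehicle R6/2 striatal libraries ran from 92.7 to 122 CPM, median 107, against 352 to 622 CPM in WT. Every R6/2 value lay far under the lowest WT value. The level was 4.10-fold lower (log2 -2.04 ± 0.09 SE, adjusted p = 5.32e-14), which placed Cnr1 at rank 9 by p and at rank 129 by size of fall among 17394 genes. Of these genes 50.2% were called, 25.8% higher and 24.5% lower.

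In the cortex Cnr1 ran from 113 to 166 CPM in vehicle R6/2 mice, median 140, and from 122 to 181 CPM in WT, median 147. The ranges overlapped over most of their length, and the difference was not called (log2 -0.13 ± 0.08, 95% interval -0.30 to 0.03, adjusted p = 0.188). The 95% interval ended at a fall of 0.30 on the log2 scale, far from the striatal one. The cortical value was -0.02 among females alone and -0.26 among males alone, not called in either (adjusted p = 0.905 and 0.109 in edgeR). The difference between the sexes was 0.25 (95% interval -0.08 to 0.58) and was not called. The test of the difference between the tissues was called: the R6/2 effect on Cnr1 differed by -1.93 ± 0.11 on the log2 scale, striatum minus cortex (adjusted p = 2.01e-11), rank 1 by p among 18122 genes. As a result the order of the tissues turned. Cnr1 was higher in the striatum of all 8 WT animals, with a median striatum to cortex ratio of 2.88, and higher in the striatum of 0 of 7 vehicle R6/2 animals, with a median ratio of 0.784. The striatal and cortical libraries of vehicle R6/2 mice, like those of WT mice, shared no run tag.

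**Figure D2:**
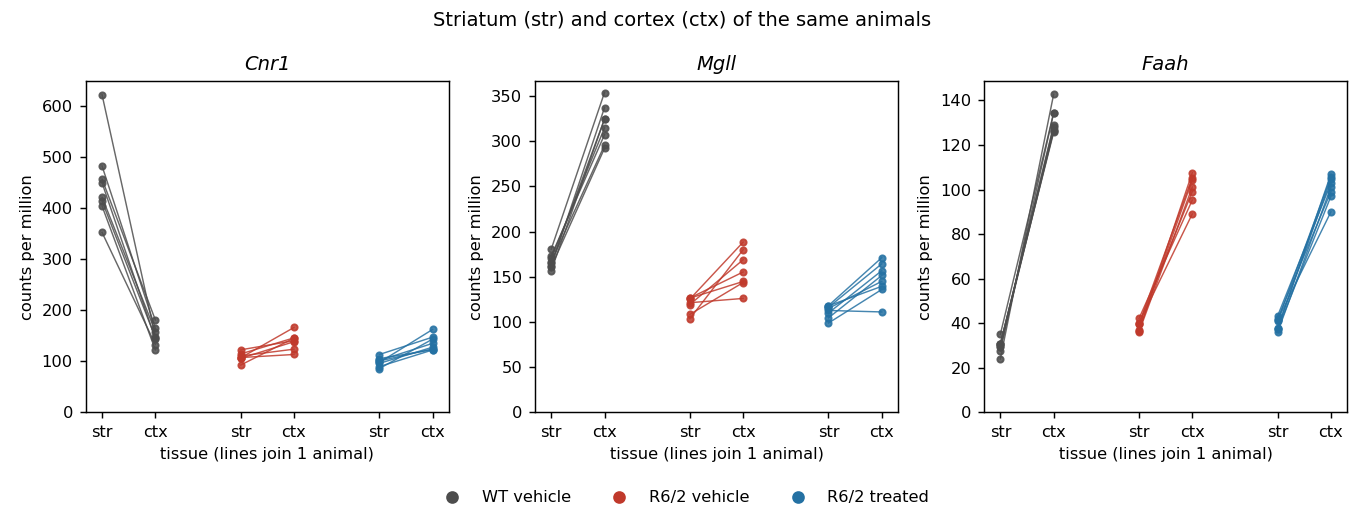
CPM of Cnr1, Mgll and Faah in the striatum (str) and cortex (ctx) of each animal, a line joining the libraries of 1 animal, in WT vehicle (grey), R6/2 vehicle (red) and R6/2 treated mice (blue). The Cnr1 lines fell from striatum to cortex in the 8 WT animals and rose in the 7 vehicle R6/2 animals.

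Markers listed for cell types that include CB1-bearing cells moved as well. The share of all genes called lower was 24.5% in the striatum and 22.6% in the cortex. Of the 12 striatal projection neuron markers 11 were lower in vehicle R6/2 striatum (median log2 -1.30), and their summed level was 3030 to 3493 CPM against 7027 to 9351 CPM in WT. None of the 12 was under 0.1 CPM throughout any group. In the library of F4, where that sum was 929 CPM, Cnr1 was 97.7 CPM, within the 85.8 to 113 CPM of its group. In the cortex, 7 of the 8 genes listed for CCK interneurons and related cells were lower in vehicle R6/2 mice (median log2 -0.72), with summed levels of 211 to 270 CPM against 538 to 633 CPM in WT that did not overlap, while Cnr1 there overlapped between the groups. In the striatum 6 of those 8 genes were lower (median log2 -0.91). That list is not confined to CCK cells. The part of the marker genes in the Cnr1 result was not tested.

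**Figure D3:**
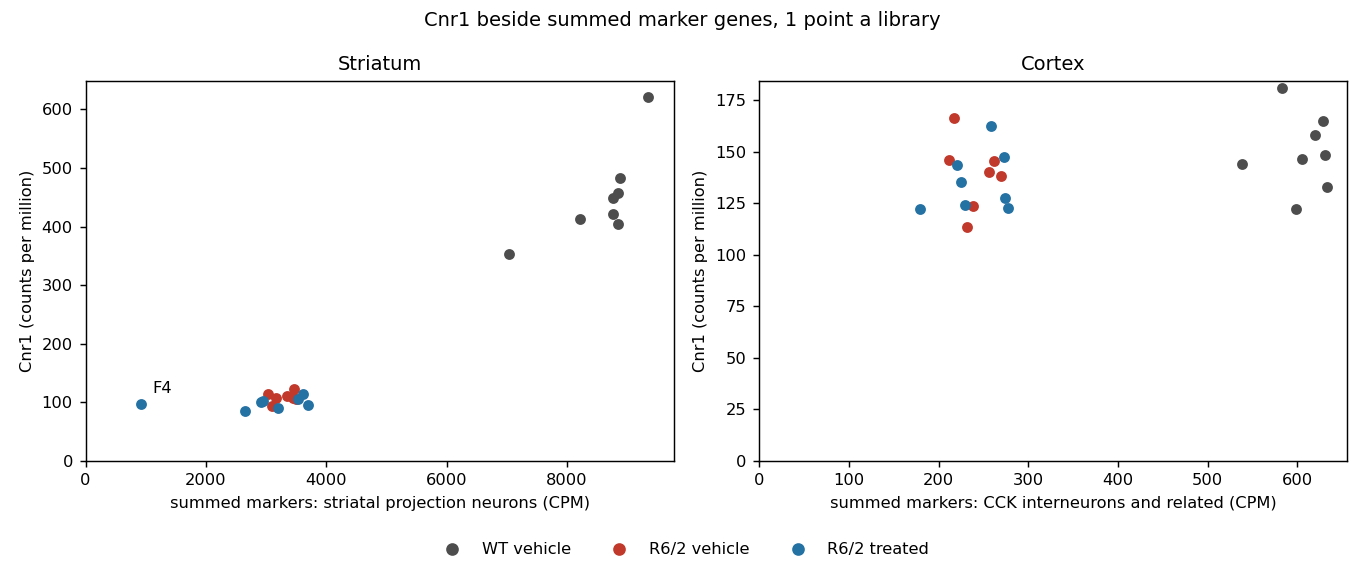
Cnr1 (CPM) against the summed CPM of listed markers, coloured as WT vehicle (grey), R6/2 vehicle (red) and R6/2 treated (blue). Left, markers of striatal projection neurons in 23 striatal libraries. Right, genes listed for CCK interneurons and related cells in 23 cortical libraries. F4 marks the treated striatal library with 929 CPM of markers and 97.7 CPM of Cnr1; in the cortex the markers separated WT from R6/2 mice and Cnr1 did not.

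The synthesis genes. Dagla (chr19:10245265-10304877), which encodes the lipase that makes most neuronal 2-AG, was lower in both tissues of vehicle R6/2 mice. In the striatum it ran from 70.3 to 86.7 CPM, median 75.9, against 103 to 136 CPM, median 120, in WT, with no overlap (log2 -0.63 ± 0.07, adjusted p = 3.43e-07). In the cortex it ran from 85.4 to 138 CPM, median 102, against 138 to 174 CPM, median 148 (log2 -0.54 ± 0.12, adjusted p = 5.11e-04). There the vehicle group spread widely, with a coefficient of variation of 20.2% against 8.12% in WT, and its highest library, from F3, reached the WT range. That is the library with more striatal projection neuron markers, and without it the cortical difference was -0.60. Leaving it out also moved cortical Daglb from -0.43 to -0.46, Mgll from -1.02 to -0.98, Faah from -0.40 to -0.37 and Abhd12 from -0.20 to -0.19. Abhd6 stayed at -0.50, and 6 members were still called.

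The 2 highest of these cortical Dagla values came from females. The means were 117 CPM in 4 vehicle R6/2 females and 91.9 CPM in 3 males, against 140 and 159 CPM in WT females and males. Among females alone the cortical fall was 0.27 and was not called (adjusted p = 0.183), and among males alone it was 0.81 (adjusted p = 1.98e-05). The difference between the effects in females and males was 0.54 with a 95% interval from 0.16 to 0.92. It was not called over all genes (adjusted p = 0.614 in edgeR).

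Daglb (chr5:143464584-143505942), the other diacylglycerol lipase gene and in brain known from microglia and other cells, had a small striatal and a larger cortical difference. In the striatum it was 26.4 to 28.4 CPM, median 27.1, against 29.0 to 30.9 CPM, median 29.8, in WT. The ranges did not overlap because both were narrow, and the fall was 0.13 ± 0.04 on the log2 scale (adjusted p = 0.0095). It did not hold on FPKM (adjusted p = 0.877 with limma) or once the run tag in the library names entered the fit (adjusted p = 0.0564). In the cortex Daglb ran from 30.8 to 38.2 CPM, median 33.4, against 42.4 to 47.9 CPM, median 44.6, again without overlap (log2 -0.43 ± 0.06, adjusted p = 1.87e-06). Its exons share 2309 bases with Rac1 on the opposite strand, a gene with a median count of 11865 against 1044 for Daglb, and since strand use is not known, reads of the pair cannot be told apart. Rac1 itself differed by 0.08 ± 0.04 in the striatum (adjusted p = 0.0823) and was 0.19 ± 0.05 higher in the cortex of vehicle R6/2 mice (adjusted p = 0.00219).

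Napepld (chr5:21662901-21701396), whose enzyme releases anandamide and other N-acylethanolamines, was the lowest member and was called in neither tissue. It ran from 8.56 to 11.0 CPM, median 9.25, in vehicle R6/2 striatum and from 6.57 to 14.0 CPM, median 8.88, in WT (log2 0.01 ± 0.13, 95% interval -0.26 to 0.28). In the cortex the ranges were 17.6 to 23.2 CPM, median 21.0, and 18.4 to 24.7 CPM, median 21.6 (log2 -0.10 ± 0.07, 95% interval -0.23 to 0.04). The groups overlapped in both tissues, and the striatal WT libraries varied more (23.8%) than those of any other member in WT mice.

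**Figure D4:**
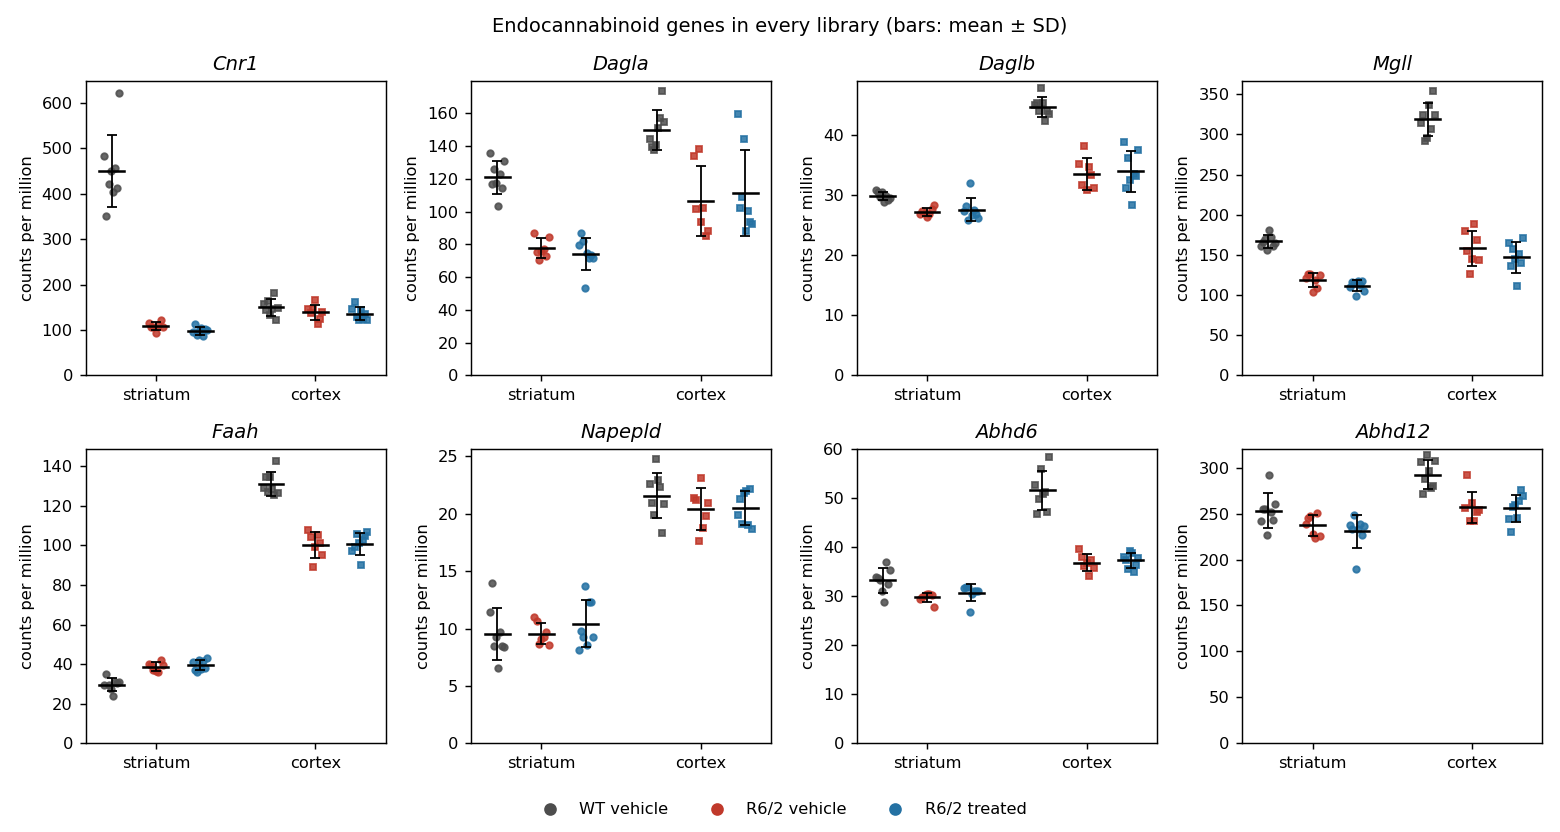
CPM of each of the 8 genes in every library, striatum as circles and cortex as squares, with WT vehicle in grey, R6/2 vehicle in red and R6/2 treated in blue, and black bars for the mean ± SD of 7 or 8 libraries. The separation of WT from both R6/2 groups was widest for Cnr1 in the striatum and for Mgll in the cortex, and the R6/2 groups overlapped in each panel.

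The breakdown genes. Mgll (chr6:88724412-88828360), whose product removes most 2-AG in brain, was lower in both tissues, and more so in the cortex. In the cortex the 7 vehicle R6/2 libraries ran from 126 to 188 CPM, median 155, and the 8 WT libraries from 292 to 354 CPM, median 319. The groups were far apart, with a level 2.03-fold lower (log2 -1.02 ± 0.08, adjusted p = 1.49e-09). In the striatum the ranges were 104 to 126 CPM, median 121, and 157 to 180 CPM, median 166, also without overlap (log2 -0.48 ± 0.05, adjusted p = 4.12e-08). The cortical fall was the larger one by 0.52 ± 0.09 (tissue by genotype, adjusted p = 2.13e-04). An antisense gene of low count, Gm26588 (median count 45.5 against 5160 for Mgll), shares 167 exon bases with Mgll; it was 0.84 ± 0.13 lower in vehicle R6/2 cortex too (adjusted p = 1.56e-05).

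Faah (chr4:115967145-116017926), the gene of the anandamide hydrolase, went opposite ways in the 2 tissues. In the striatum it rose, from 24.0 to 35.0 CPM in WT, median 30.1, to 36.1 to 42.1 CPM in vehicle R6/2 mice, median 39.7. Every vehicle R6/2 library lay above every WT library (log2 0.39 ± 0.06, 1.31-fold, adjusted p = 9.03e-06). In the cortex it fell, from 126 to 143 CPM, median 129, to 89.1 to 108 CPM, median 101, again with no overlap (log2 -0.40 ± 0.04, 1.32-fold lower, adjusted p = 1.68e-07). The difference between these effects was 0.77 ± 0.08 (adjusted p = 3.00e-07). Faah was the only member called higher in R6/2 mice, and on FPKM it overtook Daglb in the vehicle R6/2 striatum (12.5 ± 0.57 against 9.64 ± 0.27 FPKM, n = 7).

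Abhd6 (chr14:8002902-8056763) encodes a membrane lipase that limits 2-AG at the site of its synthesis. In the cortex it fell from 46.8 to 58.5 CPM in WT, median 51.1, to 34.2 to 39.6 CPM, median 36.8, without overlap (log2 -0.50 ± 0.05, adjusted p = 1.20e-08). In the striatum the ranges were 28.9 to 36.9 CPM, median 33.5, in WT and 27.8 to 30.5 CPM, median 30.2, in vehicle R6/2 mice, which overlapped. The striatal fall was 0.15 ± 0.04 (adjusted p = 0.00928) and was not called on FPKM (adjusted p = 0.66). The cortical fall was the larger by 0.33 ± 0.05 (adjusted p = 3.29e-05).

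Abhd12 (chr2:150832493-150904741), whose product breaks down 2-AG and lysophosphatidylserine and which is prominent in microglia, had the smallest difference among the members called in the cortex. It ran from 241 to 292 CPM there in vehicle R6/2 mice, median 254, and from 271 to 314 CPM in WT, median 292, with overlap (log2 -0.20 ± 0.05, adjusted p = 0.00143). In the striatum it ran from 223 to 251 CPM, median 239, against 227 to 292 CPM, median 253, and was not called (log2 -0.08 ± 0.05, 95% interval -0.19 to 0.03, adjusted p = 0.203). Without WT male M1 the striatal difference was -0.05 (adjusted p = 0.39). That library, at 292 CPM the highest, was also the one with the highest cortical projection neuron markers, 892 CPM against 583 to 726 CPM in the other 7.

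Counted together, 1 member was higher and 5 were lower in vehicle R6/2 striatum, with a median log2 difference of -0.14 against 0.00 for all genes, and 0 were higher and 6 lower in the cortex, with a median of -0.42 against 0.00. In the striatum 50.2% of 17394 genes were called, 25.8% higher and 24.5% lower. In the cortex 44.1% of 17484 genes were called, 21.5% higher and 22.6% lower. The library names carry a run tag, an L number whose meaning is not given. With the libraries held to tags shared by both groups (5 WT and 7 vehicle R6/2 striatal libraries, 8 and 4 cortical ones), Cnr1 was at -1.94 and Faah at 0.38 in the striatum, and Mgll at -1.13, Abhd6 at -0.49 and Faah at -0.44 in the cortex. The same counts of 6 members per tissue were called in those libraries, where 8010 genes in all were called in the striatum and 7399 in the cortex. Across tissues the R6/2 effect differed for Cnr1, Mgll, Faah, Abhd6 and Daglb (0.28 ± 0.07, adjusted p = 0.00616), where 15.8% of 18122 genes were called, 7.06% with a higher and 8.74% with a lower effect in the striatum. It was not called for Dagla (-0.13, 95% interval -0.36 to 0.11), Napepld (0.10, -0.13 to 0.34) and Abhd12 (0.09, -0.02 to 0.21).

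**Figure D5:**
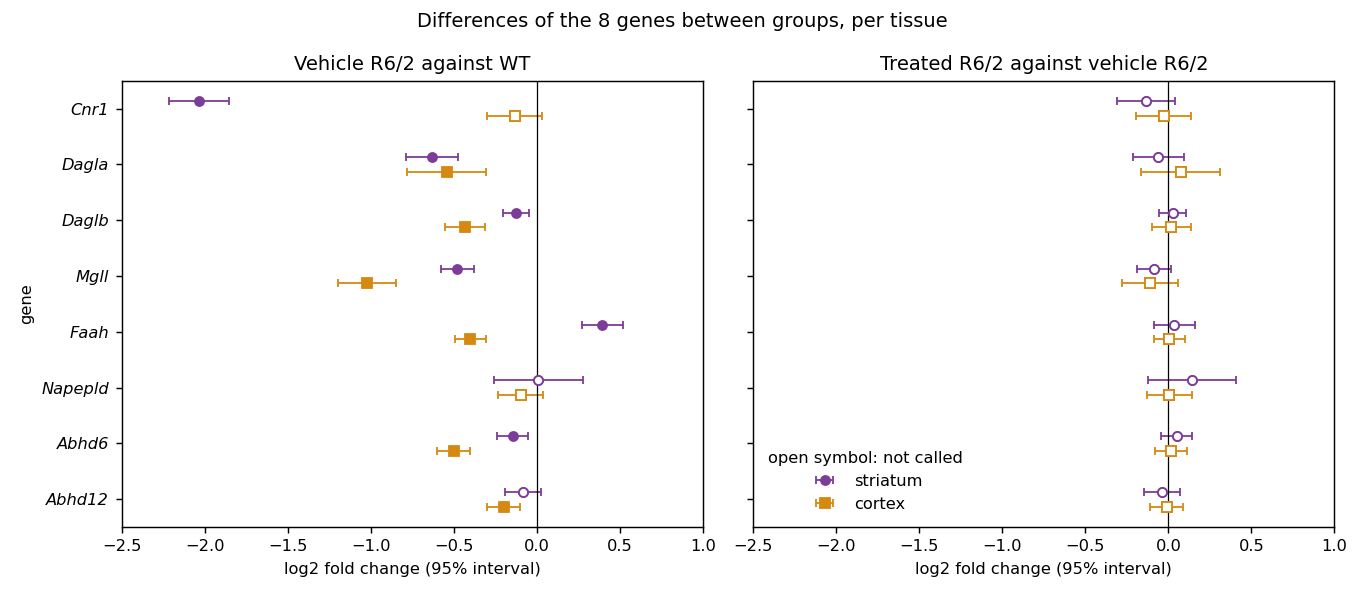
Log2 fold changes of the 8 genes with 95% intervals, vehicle R6/2 against WT (left) and treated against vehicle R6/2 (right), striatum as purple circles and cortex as orange squares, open where the gene was not called. On the left Cnr1 lay at -2.04 in the striatum and Mgll at -1.02 in the cortex, and Faah lay on opposite sides of 0; on the right all 16 intervals included 0.

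Whether the KMO inhibitor changed these genes was asked in R6/2 mice alone. No member was called in either tissue, and 0% of genes were called over the whole table in both (edgeR). At an unadjusted p under 0.05 there were 464 of 17394 genes in the striatum and 1015 of 17484 in the cortex, with 0 members among either, and DESeq2 called 1 and 0 genes. Cnr1 ran from 85.8 to 113 CPM in the treated striatum, median 99.1, and from 92.7 to 122 CPM with vehicle, median 107. These ranges overlapped, and the difference was -0.14 with a 95% interval from -0.31 to 0.04. In the cortex treated mice ran from 122 to 162 CPM, median 131, and the Cnr1 difference was -0.03 (-0.19 to 0.14).

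Faah, the gene that rose in R6/2 striatum, was 36.0 to 43.3 CPM in treated striatum, median 39.5, a difference of 0.04 (95% interval -0.09 to 0.16). For cortical Mgll the treated libraries ran from 111 to 171 CPM, median 148, a difference of -0.11 (-0.28 to 0.06). The widest intervals were those of striatal Napepld (0.14, -0.12 to 0.41) and cortical Dagla (0.07, -0.16 to 0.31). Without treated F4 the Napepld value was 0.08, and without vehicle F3 the Dagla value was 0.13. For the other members the intervals ran from -0.21 to 0.10 (Dagla), -0.06 to 0.10 (Daglb), -0.19 to 0.01 (Mgll), -0.04 to 0.14 (Abhd6) and -0.15 to 0.07 (Abhd12) in the striatum. In the cortex they ran from -0.10 to 0.14 (Daglb), -0.09 to 0.10 (Faah), -0.13 to 0.14 (Napepld), -0.08 to 0.11 (Abhd6) and -0.11 to 0.09 (Abhd12). Without F4 the striatal values were -0.14 (Cnr1), 0.0018 (Dagla, from -0.06), -0.01 (Daglb, from 0.02), -0.06 (Mgll), 0.02 (Faah), 0.08 (Abhd6) and -0.0036 (Abhd12), and 0 members were called. Neither the treatment effect between tissues (0% of genes called) nor between the sexes (0% in each tissue) was called for any member. For the R6/2 effect between the sexes, too, 0% of genes were called in striatum and cortex.

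Treated R6/2 mice were also set against the same WT libraries, which the vehicle comparison shares. In the striatum Cnr1 was at -2.17 ± 0.08, Dagla at -0.69 ± 0.07, Mgll at -0.57 ± 0.05 and Faah at 0.43 ± 0.06, where the vehicle values were -2.04, -0.63, -0.48 and 0.39. Daglb (-0.10 ± 0.04, adjusted p = 0.0263) and Abhd12 (-0.12 ± 0.05, adjusted p = 0.0476) were also called lower, in all 1 higher and 5 lower where 52.9% of genes were called, 27.8% higher and 25.2% lower. Without the library of F4, Cnr1 was at -2.18, Dagla at -0.63, Mgll at -0.54, Faah at 0.41 and Daglb at -0.14, and Abhd12 at -0.09 was no longer called (adjusted p = 0.0956). Abhd12 lost its call without most single libraries, with an adjusted p up to 0.11 without WT male M1, and Daglb lost it without treated F3 (adjusted p = 0.0601) or M4 (adjusted p = 0.0534). Striatal Abhd6 (-0.10 ± 0.04, adjusted p = 0.0632) was called without WT M1 (adjusted p = 0.0116) or F4 (adjusted p = 0.0424). Napepld was not called (0.15 ± 0.12, and 0.09 without F4).

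In the cortex of treated mice 6 members were lower and 0 higher than in WT, where 46.7% of genes were called, 22.8% higher and 23.9% lower. Mgll was at -1.13 ± 0.08, Abhd6 at -0.49 ± 0.05, Dagla at -0.47 ± 0.11, Daglb at -0.42 ± 0.05, Faah at -0.39 ± 0.04 and Abhd12 at -0.21 ± 0.05. Dagla was at -0.14 in females alone (adjusted p = 0.505) and at -0.77 in males alone (adjusted p = 8.98e-06). Cnr1 was at -0.16 ± 0.08 and was not called (adjusted p = 0.0888), though it passed without treated F2 (adjusted p = 0.0457), WT M3 (0.0432) or WT F4 (0.0437). Napepld was at -0.09 ± 0.06 (adjusted p = 0.249). Treated and WT cortical libraries shared no run tag, so that tag and group can be set apart only through the vehicle libraries; with the tag as a covariate Mgll, Abhd6, Daglb, Faah and Abhd12 were still called and Dagla was not (-0.52, adjusted p = 0.0638).

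Other genes of the pathway were counted in 55 listed genes, of which 48 were tested in each tissue. In vehicle R6/2 striatum 11 were higher and 20 lower (median log2 -0.15), and in the cortex 7 were higher and 20 lower (median -0.18). Over all genes 25.8% were called higher and 24.5% lower in the striatum, and 21.5% and 22.6% in the cortex. The genes listed as signals upstream of 2-AG synthesis were lower in 8 of 12 cases and higher in 2 in the striatum (median -0.48). In the cortex 7 were lower and 1 was higher (median -0.39). The list was not split by whether a product raises or lowers synthesis. In the striatum the scaffold gene Homer1 (-1.10 ± 0.13) and the phospholipase gene Plcb1 (-0.64 ± 0.12) were among those that fell. In the cortex the muscarinic receptor Chrm3 (-1.07 ± 0.09), the kinase Camk2a (-1.05 ± 0.06), which phosphorylates the lipase, and Homer1 (-1.04 ± 0.15) fell most. With edgeR 0 of the 48 were called between treated and vehicle mice in either tissue.

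Of 11 partners of the receptor, 4 were higher and 3 lower in the striatum and 4 higher and 2 lower in the cortex, where 50.2% and 44.1% of all genes were called, so that these counts lie near the background. Cnrip1, which encodes a protein that binds the CB1 tail, rose by 0.51 ± 0.08 in the striatum, where its receptor fell. Necab1 fell by 0.40 ± 0.09 and the G protein gene Gnao1 by 0.36 ± 0.04 there, while in the cortex Gnai2 (0.29 ± 0.05) and Gnai3 (0.28 ± 0.05) rose and the arrestin gene Arrb1 fell by 0.22 ± 0.09. Among 6 other receptors tested, Gpr55, a receptor for lysophosphatidylinositol, fell by 1.21 ± 0.13 in the striatum, and the channel gene Trpv2 rose in the striatum (0.45 ± 0.08) and the cortex (0.42 ± 0.06). In the cortex the nuclear receptors Pparg (-0.65 ± 0.13) and Ppard (-0.31 ± 0.09) fell.

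Of 7 tested genes for other routes to N-acylethanolamines, 4 were lower and 1 higher in the striatum, and 5 lower and 1 higher in the cortex. Gdpd1 rose by 0.32 ± 0.04 in the striatum, Plaat3 fell by 0.24 ± 0.08 there and by 0.27 ± 0.06 in the cortex, and Ptpn22, a phosphatase gene better known from immune cells, fell by 0.93 ± 0.29 and 0.80 ± 0.19 from a level under 2 CPM. Inpp5d fell by 0.34 ± 0.08 in the cortex. Of 12 tested genes for other breakdown, oxidation and transport, 3 were higher and 4 lower in the striatum. In the cortex 0 were higher and 4 lower. As background to both lists, 25.8% of all genes were called higher and 24.5% lower in the striatum. The cortical shares were 21.5% and 22.6%. Ptgs2, the cyclooxygenase gene whose product oxidises endocannabinoids, rose in the striatum (0.66 ± 0.19) and fell in the cortex (-0.87 ± 0.17), a difference between the tissues that was called (1.49 ± 0.24, adjusted p = 8.46e-05). The carrier gene Fabp5 fell by 0.58 ± 0.12 in the striatum, Fabp3 by 0.27 ± 0.09 in the cortex, and the hydrolase gene Abhd2 by 0.31 ± 0.06 and 0.24 ± 0.06.

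Markers of other cells that express these enzymes also differed in vehicle R6/2 mice. For comparison, 24.5% of all genes were called lower in the striatum and 22.6% in the cortex. Astrocyte genes were lower in 7 of 8 cases in the striatum and 6 of 8 in the cortex, with summed levels of 2791 to 3754 CPM against 5020 to 6174 CPM in WT striatum, and 3038 to 4451 against 5179 to 7440 CPM in WT cortex. Oligodendrocyte genes were lower in 5 of 8 cases in each tissue, with sums of 7961 to 8562 against 9904 to 13652 CPM in the striatum and 3400 to 6373 against 4916 to 7838 CPM in the cortex. Microglial genes were lower in 5 of 9 cases in the striatum (344 to 424 against 409 to 551 CPM) and 1 of 9 in the cortex (265 to 352 against 283 to 385 CPM). General neuronal genes were lower in 5 of 6 cases and higher in 1 in each tissue, with cortical sums of 4625 to 5650 against 6342 to 7937 CPM. For cortical projection neurons, 6 of 10 listed genes fell and 1 rose in the cortex. Their sums there were 1854 to 2578 CPM against 2732 to 3167 CPM in WT, without overlap. Of the 9 tested in the striatum, 3 fell and 1 rose. Among 9 genes listed for other interneurons, 8 fell in the cortex, with sums of 491 to 682 against 933 to 1059 CPM. In the striatum 7 of them fell, with sums of 1330 to 1714 against 1583 to 2104 CPM. The part of these lists in the enzyme results was not tested.

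The genes whose pattern was most like that of Cnr1 were found from deviations from the mean of each group and sex, over the 23 libraries of a tissue that share no animal. In the striatum these were Kbtbd4 (Pearson r = 0.83), Adcy3 (0.81), 2900026A02Rik (0.81), Fam189a1 (0.80) and Nsun3 (0.80). In the cortex they were Ccn3 (0.88), Shisa9, St6galnac5 and Uhmk1 (0.87 each) and Rspo2 (0.86). None of the other 7 members was among them: the highest correlation of a member with Cnr1 was 0.37 (Dagla) in the striatum and 0.36 (Napepld) in the cortex, and Faah was at -0.61 in the cortex. The libraries share dissection and run tags, so these values are a description.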

How the data were processed

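The authors deposited estimated counts and FPKM per Ensembl gene for 46 libraries. CASAVA 1.8.2 and mm10 are named in the submitters' processing notes. Not given in the sources used here: aligner, quantifier, strand setting and FPKM denominator. Among nonzero deposited counts, 33.8% were not whole (tolerance 1e-06), so they are estimated counts and were rounded. Per the labels' protocols, the libraries were built from enriched fractions of miRNeasy-purified RNA.

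edgeR 4.0.16 (R 4.3.3) tested the rounded counts by quasi-likelihood with TMM scaling and filterByExpr. Each tissue was fitted apart, with 3 groups and sex as a covariate (19 residual degrees of freedom); fits across tissues had the animal as a block. Alternatives used DESeq2 1.42.0, limma 3.58.1 on log2(FPKM + 0.1) and log2(FPKM + 1), other scaling, filters, covariates and subsets, and left out each library in turn. SE is the log2 fold change over the square root of F; SD is over animals. Reads carry no molecular identifiers. The precision of the group comparisons comes from the spread between animals. Positions are from GENCODE vM21 on mm10. No pair of libraries in a group agreed within sampling noise (lowest chi-square per degree of freedom 7.72). The fits were also run on simulated counts with known changes in the vehicle group alone, as a check of the steps. Few genes were changed there, so it does not cover data where 50.2% of genes are called, as in the striatum. The members, the gene lists and the markers were chosen with earlier results of these data known. All 8 members are named; of other pathway genes, at most the 3 called ones of largest change per list and comparison are, and the 5 genes most like Cnr1 per tissue. A gene that the rule names is not reported here.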

Additional observations from a re-analysis of the deposited data

Results flagged for a closer look

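Values far from the others of their group were looked for with Dixon's ratio in 48 groups of libraries (8 genes in 6 groups), of which chance marks about 1 in 20, and 6 were found. In the treated striatum, the library of F4 was the lowest for Dagla (53.5 CPM), Abhd6 (26.8 CPM) and Abhd12 (190 CPM) and the highest for Daglb (32.0 CPM); it also had the lowest summed striatal projection neuron markers. Its part in the group differences is given by the values without it: Dagla -0.63, Daglb -0.14, Abhd6 -0.07 and Abhd12 -0.09 on the log2 scale against WT. In the vehicle R6/2 striatum the library of M3 was lowest for Abhd6 (27.8 CPM), and in the vehicle R6/2 cortex that of F2 was highest for Abhd12 (292 CPM).

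The R6/2 effect differed between striatum and cortex by the interaction test for 5 members: Cnr1 (-1.93 on the log2 scale, striatum minus cortex), Faah (0.77), Mgll (0.52), Abhd6 (0.33) and Daglb (0.28). For Faah the direction was opposite in the 2 tissues, and for Mgll, Abhd6 and Daglb the cortical fall was the larger.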

How the results depend on the processing

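Under the alternatives, 1672 member values were recomputed: 1576 kept their direction and side of the threshold, 40 lost a call, 6 gained one and 50 changed sign. A value that changed sign was counted under that alone, also where it lost its call, as treated striatal Daglb did on FPKM. The 209 counts of called members stayed within 1.5 times, a limit that takes in a drop from 6 to 4 members. Cnr1 in vehicle R6/2 striatum lay between -2.05 and -1.84 under 11 other settings, and between -2.08 and -1.96 with 1 library left out. Calls were lost for Daglb, Abhd6 and Abhd12 in the striatum and for Dagla and Abhd12 in the cortex, and the cause was not tested.

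On FPKM the median of all genes shifted by 0.12 (vehicle R6/2 against WT) and 0.15 (treated against WT) in the striatum at a pseudocount of 0.1. Relative to that shift Abhd12, Daglb and Abhd6 were still lower; without it Abhd12 was 0.0147 and, with a pseudocount of 1, 0.0146 in vehicle mice, and in treated mice Daglb was 0.0281 and 0.0260 and Abhd6 0.0386 and 0.0365. In vehicle mice Daglb and Abhd6 lost their striatal calls there, and 4 members rather than 6 were called. The count over all genes went the other way, 9664 rather than 8735 at a pseudocount of 0.1. Abhd12 then differed between tissues (adjusted p = 0.0482, limma).

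Among females alone Napepld was -0.119 and -0.0633 (vehicle and treated against WT, striatum), and for treatment in the cortex Napepld was -0.0272 and Abhd6 -0.00835. Among males alone treatment values were -0.0430 (Daglb) and 0.00427 (Abhd12) in the striatum, and 0.0689 (Cnr1) and 0.0862 (Abhd12) in the cortex. With shared run tags alone striatal Napepld was -0.0851. When the run tag entered the fit, the cortical treatment values were 0.0229 (Cnr1), -0.00764 (Dagla), -0.0583 (Faah) and -0.00087 (Abhd6). Leaving out 1 library moved treatment values across 0 in the cortex: Abhd12 from -0.0274 to 0.0229, Abhd6 from -0.00229 to 0.0295, Cnr1 from -0.0690 to 0.0130, Dagla from -0.00587 to 0.132, Daglb from -0.00853 to 0.0467, Faah from -0.0201 to 0.0275 and Napepld from -0.0281 to 0.0383. In the striatum Dagla ran from -0.0943 to 0.00183 and Daglb from -0.0111 to 0.0421, and Napepld in vehicle mice from -0.0444 to 0.101.

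Replicate numbers are not said to mark litters or days. Same-numbered libraries of different groups correlated at a median of 0.01 in the striatum and -0.04 in the cortex, with 1 and 4 of 22 pairs over 0.1. These correlations, taken over all tested genes, show no common pairing but cannot exclude one that moves few genes. With the replicate block 6 members were called in each tissue, 8277 genes rather than 8735 in the striatum and 7351 rather than 7712 in the cortex, and cortical Abhd6 under treatment was -0.00133.

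Strand and quantifier are unknown.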
